A study of Solanum lycopersicum with 24 samples.

Results

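Transcripts of 6 loci for enzymes of cytosolic isoprenoid synthesis were followed in glandular cells of tomato leaf trichomes. They are the HMG-CoA reductase (HMGR) loci Solyc02g082260, Solyc02g038740, Solyc03g032010 and Solyc03g032020, the farnesyl diphosphate synthase (FPS) locus Solyc12g015860 and the squalene synthase (SQS) locus Solyc01g110290. They were chosen by enzyme and locus number, not by their counts, and are 6 of the 34725 gene models counted. All 6 passed the filter on low counts.

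The mevalonate pathway builds isopentenyl diphosphate from acetyl-CoA in the cytosol, and HMGR, which reduces HMG-CoA to mevalonate, is its main point of control. FPS joins these units into farnesyl diphosphate, which lies at a branch. SQS condenses farnesyl diphosphate to squalene, the entry to sterols, while sesquiterpene synthases turn it into sesquiterpenes. The plastid has a separate route to the same units, the MEP pathway, and in cultivated tomato type VI glands it supplies the abundant monoterpenes.

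The plants were the af (anthocyanin free) mutant and its complemented lines 4 and 9, called CHI4 and CHI9 here. All were potted plants of the same age from a growth chamber, and RNA came from type VI glandular cells of the leaf. Each genotype was collected at 4 sampling times, called collections 1 to 4, which gave 12 libraries sequenced on 2 lanes each. The names of the deposited tables carry March dates for collections 1 and 2 and May dates for collections 3 and 4. Loss of chalcone isomerase activity in af, restored in the lines, is background knowledge and is not stated in the labels. The labels give neither the transgene nor its promoter, nor how many plants were pooled, and each line is a single transgenic line. Whether the collections used separate plants is also not given, so p-values measure the spread between these samples only.

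Library totals ran from 8.99 M counts (CHI9 replicate 2) to 70.9 M (af replicate 1), and the loci had between 64 and 28973 counts in a library. CHI9 replicate 2 lay apart from the other line libraries in a principal component plot, at 129.9 on the first component against 13.0 to 58.1. The lanes of af replicate 4 and CHI4 replicate 4 differed from each other by more than those of the other 10 libraries. The 4 type VI gland marker loci summed to 3848 to 5131 counts per M (CPM) in af. They summed to 18915 to 25602 CPM in CHI4 and 19652 to 23889 CPM in CHI9. In af 3 of the 4 were called lower, and the other, Solyc08g005050, averaged 677 CPM against 684 CPM in the lines. The 2 acylsugar markers, of tip cells of other trichomes, summed to 30.4 to 48.3 CPM in af, 103 to 129 CPM in CHI4 and 68.4 to 84.9 CPM in CHI9. The 2 green leaf cell markers summed to 226 to 304 CPM in af, 333 to 418 CPM in CHI4 and 348 to 391 CPM in CHI9. Of these 2, Solyc02g063150 averaged 29.0 CPM in af and 105 CPM in the lines, and Solyc03g034220 228 and 262 CPM. No marker locus was at 0 in any library, and the part of the marker differences in the results below was not tested. In such bulk samples, fewer cells of a type and less RNA per cell cannot be told apart.

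None of the 6 loci (0 of 6) was called between af and the lines, taken as their mean, in the fit with genotype alone. That fit called 26.5% of all 18326 tested genes, 12.9% higher and 13.6% lower in af. An unadjusted p under 0.05 was reached by 2 of the 6 loci, beside 6864 of all tested genes. Neither DESeq2 nor limma-voom called any of the 6 loci (0 of 6). Their log2 differences, af minus the mean of the lines, ran from -0.47 to 0.57 with a median of 0.03, beside a median of 0.07 over all tested genes. The labels give the genotypes a shared sampling time, and with the collection as a block 3 of 6 were called, Solyc02g082260 and FPS lower and Solyc03g032020 higher in af. That fit called 31.7% of all genes, 15.9% lower and 15.8% higher. It was made in edgeR only, so the DESeq2 and limma-voom results do not bear on these 3 calls. Each of the 3 calls was lost when certain single libraries were left out, which are named with each locus. CPM below are scaled by TMM, and since no transcript lengths were used, levels are compared between samples and not between loci.

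**Figure D1:**
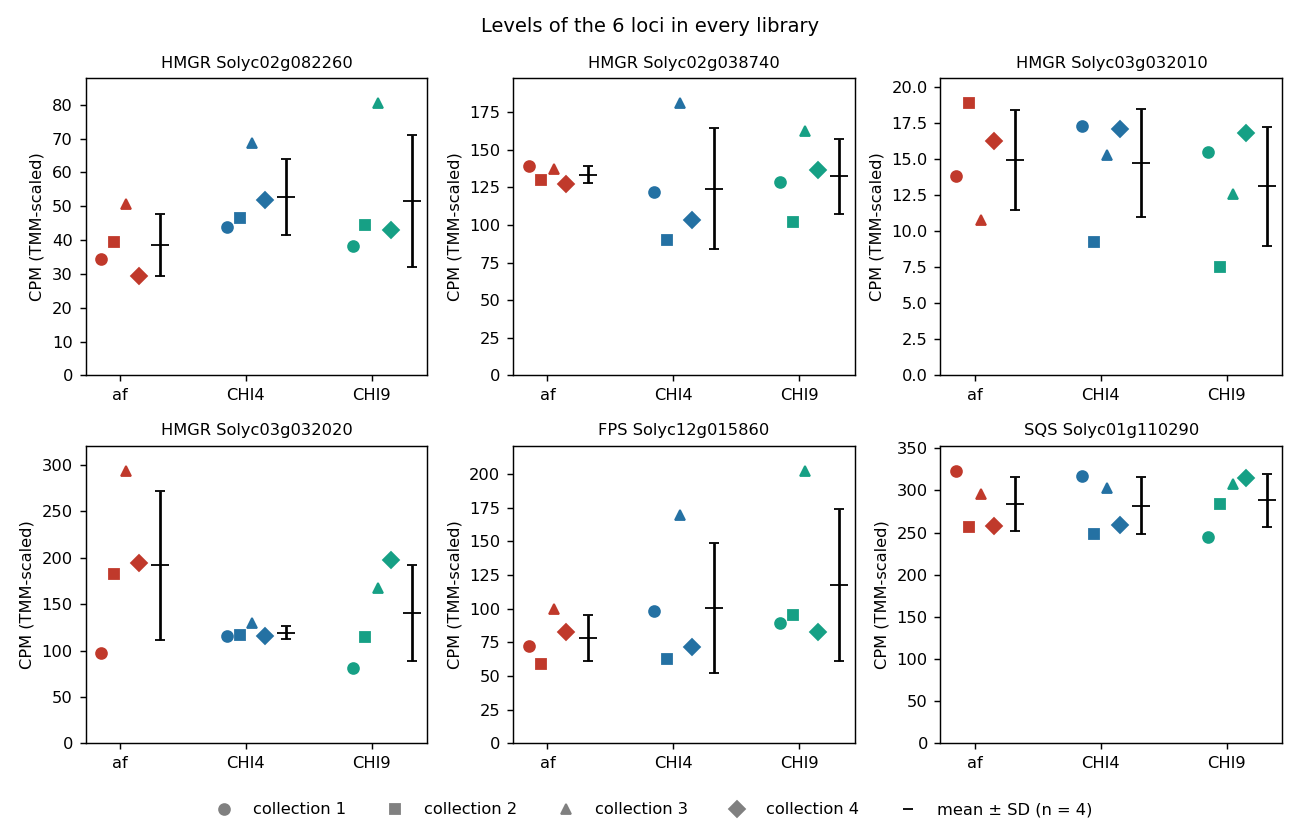
TMM-scaled CPM (linear axes from 0) of each locus in the 4 libraries of af, CHI4 and CHI9. Symbols mark the collection and bars the mean ± SD (n = 4); Solyc02g082260 and FPS have their highest point in collection 3 in each genotype, while the SQS points lie between 245 and 323 CPM.

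The HMGR locus Solyc02g082260 was lower in af than in either line within every collection. It stood at 34.5, 39.5, 50.7 and 29.3 CPM in af in collections 1 to 4. CHI4 gave 43.9, 46.6, 68.7 and 51.9 CPM, and CHI9 38.3, 44.6, 80.4 and 43.0 CPM. The groups overlap as a whole, because af in collection 3 exceeded lines in other collections, but af was the lowest of the 3 genotypes in 4 of 4 collections. Of all tested genes 14.9% were lowest in af in this way. Group means were 38.5 ± 9.14 CPM (af), 52.8 ± 11.2 CPM (CHI4) and 51.6 ± 19.4 CPM (CHI9), each with its SD and n = 4.

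With genotype alone, Solyc02g082260 had a log2 difference of -0.44 (SE 0.199, 95% interval -0.85 to -0.02, edgeR adjusted p = 0.114). With the collection block it fell by 0.42 in af (95% interval -0.69 to -0.16, edgeR adjusted p = 0.0147). Within single collections the log2 difference ran from -0.69 in collection 4 to -0.21 in collection 2. The collection 4 value rests on af replicate 4, where the locus had 31.4 CPM in lane 1 and 45.8 CPM in lane 2 (unscaled). The blocked fit was not rerun on single lanes. The blocked call was lost without af replicate 3 (adjusted p = 0.0675) and without af replicate 4 (adjusted p = 0.110), and held without each of the other 10 libraries. Without the block, the locus was called when af replicate 3 was left out (log2 difference -0.60, adjusted p = 0.0466).

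Solyc02g038740, a second HMGR locus on chromosome 2 by its number, was nearly level in af and varied in the lines. It stood at 139, 130.1, 137 and 127 CPM in af in collections 1 to 4. CHI4 gave 122, 90.0, 181 and 103 CPM, and CHI9 129, 102, 163 and 137 CPM. All 4 af libraries lay inside the range of each line. The coefficient of variation over libraries was 4.22% in af, 32.4% in CHI4 and 18.9% in CHI9, a difference in spread that was not tested. The log2 difference of af from the lines was 0.06 (95% interval -0.28 to 0.40, edgeR adjusted p = 0.832).

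Solyc03g032010 and Solyc03g032020 have neighbouring locus numbers on chromosome 3. HMGR copies are similar in sequence, and how the counting treated reads matching both, or reads of the opposite strand, is not recorded, so the split between them is uncertain. Solyc03g032010 was scarce, with 64 to 1242 counts in a library, and stood at 13.8, 18.9, 10.8 and 16.3 CPM in af. CHI4 gave 17.3, 9.29, 15.3 and 17.1 CPM, and CHI9 15.5, 7.55, 12.6 and 16.8 CPM. Both lines were lowest in collection 2, where af was highest, and the 3 groups overlapped. The log2 difference of af was 0.10 (95% interval -0.38 to 0.58, edgeR adjusted p = 0.802).

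Solyc03g032020 was the most variable HMGR locus in af. It stood at 97.3, 182, 293 and 195 CPM in af in collections 1 to 4, at 116, 117, 129.6 and 115 CPM in CHI4, and at 81.4, 115, 168 and 197 CPM in CHI9. CHI4 was nearly level, with a coefficient of variation of 5.73%, against 41.9% in af and 37.1% in CHI9. In collections 2 and 3 af exceeded both lines, and in collections 1 and 4 it lay between them. Its mean was 192 ± 80.3 CPM for af, 119 ± 6.84 CPM for CHI4 and 140.3 ± 52.0 CPM for CHI9 (SD, n = 4).

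For Solyc03g032020 the log2 difference was 0.57 with genotype alone (SE 0.249, 95% interval 0.03 to 1.10, edgeR adjusted p = 0.111). With the block it was higher in af by 0.50 (95% interval 0.15 to 0.85, edgeR adjusted p = 0.0310). The blocked call held without af replicate 1, CHI4 replicate 1 or CHI9 replicate 4. It was lost without any of the other 9 libraries, with adjusted p from 0.0503 (without CHI9 replicate 1) to 0.185 (without af replicate 3). The remaining losses came without CHI4 replicate 2 (0.0509), CHI4 replicate 4 (0.0523), af replicate 4 (0.0577), CHI4 replicate 3 (0.0666), CHI9 replicate 3 (0.0667), CHI9 replicate 2 (0.0727) and af replicate 2 (0.130), all adjusted p. Leaving out af replicate 3, its highest af library, lowered the log2 difference to 0.33 with the block and to 0.29 without it. Leaving out af replicate 1, its lowest af library, raised the difference without the block to 0.79 and made it a call (adjusted p = 0.0104).

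**Figure D2:**
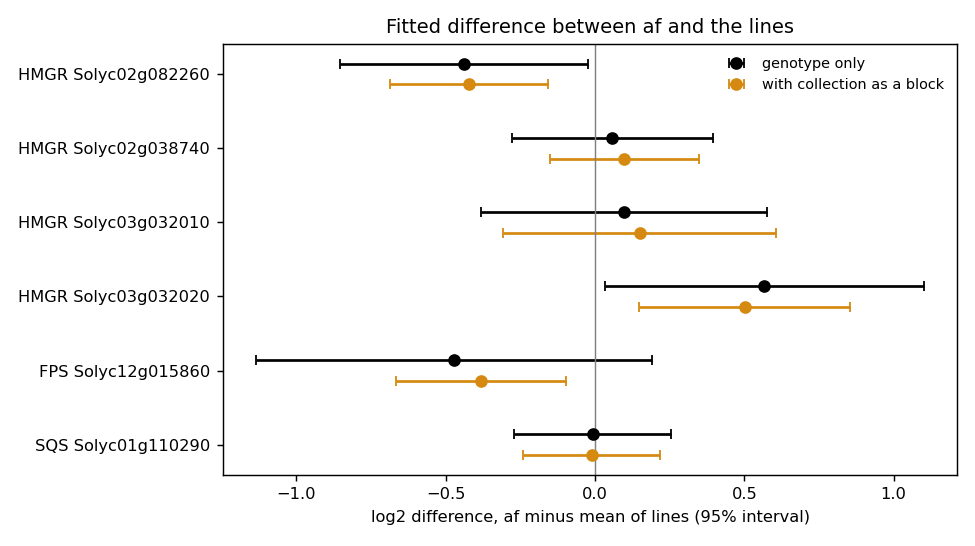
Fitted log2 difference of af from the mean of the lines for each locus, with its 95% interval, from the fit with genotype alone (black) and with the collection as a block (orange). The block narrows the interval most for FPS, from -1.13 to 0.19 down to -0.67 to -0.10, and the SQS points lie at -0.01 in both fits.

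The 4 HMGR loci summed to 379 ± 85.5 CPM for af libraries, 311 ± 57.8 for CHI4 and 337 ± 83.0 for CHI9 (SD, n = 4), with overlapping ranges. A locus's share of their joint counts depends on no scaling between libraries, but it falls when another HMGR locus rises. Solyc02g082260 held 10.3% ± 1.72 of them in af, 17.0% ± 1.55 in CHI4 and 15.3% ± 3.43 in CHI9. The af libraries ranged from 7.97% to 12.1% and those of CHI4 from 14.7% to 18.1%, without overlap, while CHI9 began at 10.9%. In CPM the same locus did overlap, at 29.3 to 50.7 in af and 43.9 to 68.7 in CHI4. Solyc03g032020 held 49.0% ± 10.8 in af, 39.0% ± 4.82 in CHI4 and 40.8% ± 7.95 in CHI9, and here all groups overlapped. These shares are descriptions without a test.

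FPS had the largest coefficients of variation of the 6 loci in the lines, 48.2% in CHI4 and 48.3% in CHI9, against 21.9% in af. It stood at 71.8, 59.2, 99.6 and 82.6 CPM in af in collections 1 to 4, at 98.3, 62.8, 169 and 71.1 CPM in CHI4, and at 89.1, 95.6, 202 and 82.9 CPM in CHI9. The genotypes overlapped, and af was the lowest in 3 of 4 collections and lay between the lines in collection 4. FPS averaged 78.3 ± 17.1 CPM over the af libraries, 100.4 ± 48.4 CPM over CHI4 and 117 ± 56.7 CPM over CHI9 (SD, n = 4). The log2 difference of af was -0.47 with genotype alone (SE 0.305, 95% interval -1.13 to 0.19, edgeR adjusted p = 0.291).

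With the block FPS fell by 0.38 in af (95% interval -0.67 to -0.10, edgeR adjusted p = 0.0386). Within collections the log2 difference was -0.38, -0.39, -0.89 and 0.10 in order. The blocked call held without 5 of the 12 libraries, and the blocked difference ran from -0.55 to -0.22, the latter without af replicate 3. Without the block it ran from -0.61 (without af replicate 3) to -0.27 (without CHI9 replicate 3). It was lost without CHI4 replicate 1 (adjusted p = 0.0737), CHI9 replicate 3 (0.0755), CHI4 replicate 3 (0.0778), CHI9 replicate 2 (0.0851), af replicate 1 (0.102), af replicate 2 (0.104) or af replicate 3 (0.265).

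SQS spanned a narrow range in all 3 genotypes. It stood at 323, 257, 296 and 258 CPM in af in collections 1 to 4, at 318, 248, 303 and 259 CPM in CHI4, and at 245, 284, 308 and 315 CPM in CHI9. Means were 283 ± 32.0, 282 ± 33.5 and 288 ± 31.7 CPM (SD, n = 4). The highest library exceeded the lowest by 1.26-fold in af, 1.28-fold in CHI4 and 1.29-fold in CHI9. The log2 difference of af from the lines was -0.01 (SE 0.126, 95% interval -0.27 to 0.26, edgeR adjusted p = 0.973). A difference inside that interval cannot be told from none.

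All of these directions are relative to TMM scaling, whose factors were 1.10 to 1.28 for af libraries and 0.853 to 0.988 for the others. With library totals alone, an alternative added after seeing the data, the median of all genes shifted by 0.42 toward af. The log2 differences then became -0.01 for Solyc02g082260, 0.49 for Solyc02g038740, 0.54 for Solyc03g032010, 0.97 for Solyc03g032020, -0.04 for FPS and 0.42 for SQS. Such a change of scale moves all genes by nearly the same amount, so it leaves the order of the loci as it was. In this setting 3 of 6 loci were called, all higher in af, where 42% of all genes were called and 36.1% higher. They were Solyc02g038740 (adjusted p = 0.0127), Solyc03g032020 (0.00191) and SQS (0.00714).

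The lines were also taken one at a time. Against CHI4, 0 of 6 were called with genotype alone (19.8% of all genes) and 2 of 6 with the block (25% of all genes). These were Solyc02g082260, at -0.46 (edgeR adjusted p = 0.0233; -0.45 and 0.174 without the block), and Solyc03g032020, at 0.57 (edgeR adjusted p = 0.0447; 0.68 and 0.124 without the block). FPS had a log2 difference from CHI4 of -0.36 without and -0.26 with the block (edgeR adjusted p = 0.527 and 0.240). The first of the 2 blocked calls was lost without any of 4 libraries (CHI4 replicates 1 and 4, af replicates 3 and 4). The second was lost without any of 8, those of collections 2 and 3 and the af and CHI4 libraries of collection 4. Without the block, leaving out af replicate 1 made Solyc03g032020 a call (log2 difference 0.90, adjusted p = 0.0141).

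Against CHI9, 0 of 6 were called with genotype alone (20.5% of all genes) and 1 of 6 with the block (25.8% of all genes). The call was FPS, at -0.50 (edgeR adjusted p = 0.0227; -0.59 and 0.271 without the block), and it was lost without af replicates 1, 2 or 3 or CHI9 replicates 2 or 3. Solyc02g082260 stood at -0.38 with the block (edgeR adjusted p = 0.0559) and Solyc03g032020 at 0.43 (edgeR adjusted p = 0.121). The comparisons with CHI4 and CHI9 share the af libraries. Between the lines, CHI9 minus CHI4, 0 of 6 were called (0.0928% of all genes). None of the 6 reached an unadjusted p under 0.05, where 1128 of 18326 genes did. DESeq2 and limma-voom also called 0 of 6, and log2 differences ran from -0.16 to 0.23.

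**Figure D3:**
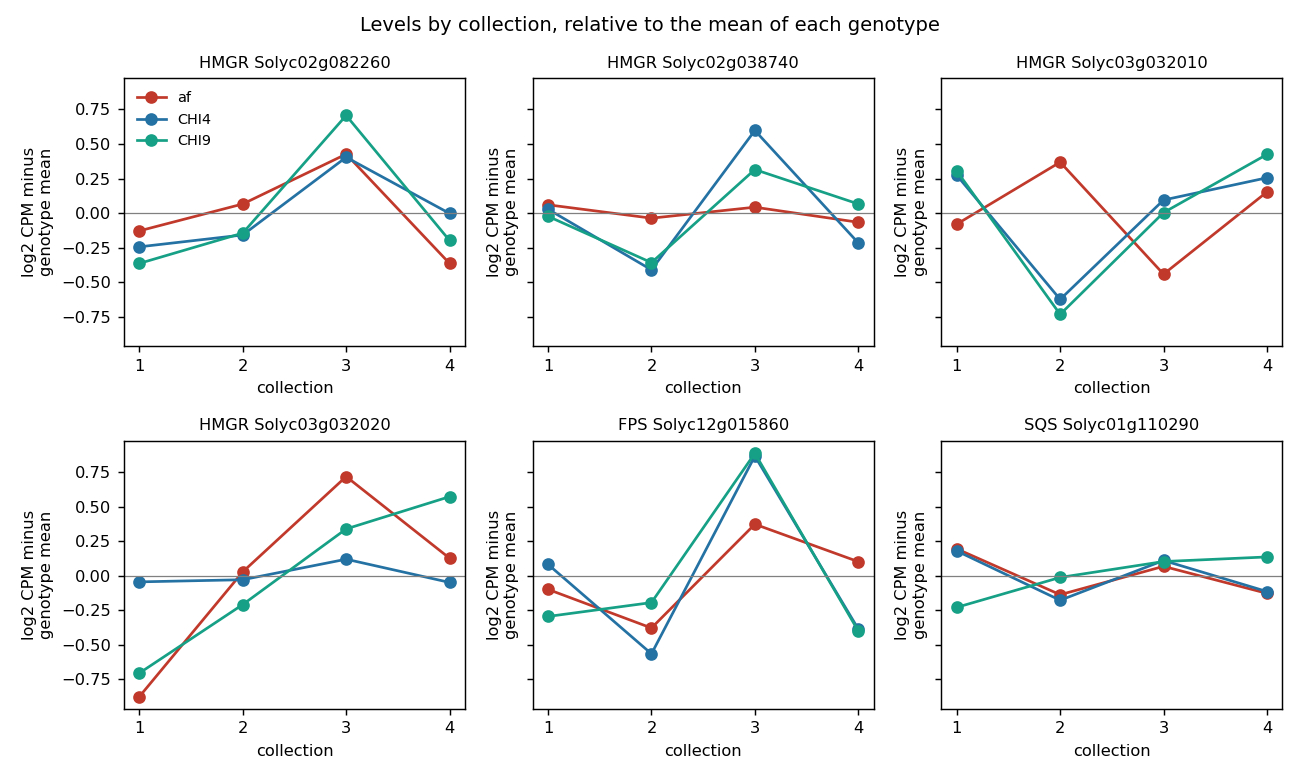
Log2 CPM of each locus in collections 1 to 4, relative to the mean of its genotype over the collections (y axis), with a line for each genotype. In Solyc02g082260 and FPS all 3 lines peak in collection 3, and in FPS the 3 values drop from collection 3 to collection 4.

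The contrasts between collections, fitted with genotype and collection together, made calls between collections 3 and 4. From collection 3 to collection 4, which both carry May dates, 2 of 6 loci fell, where 1.21% of all genes were called and 0.584% lower. FPS fell by 0.94 on the log2 scale (SE 0.181, 95% interval -1.32 to -0.56, edgeR adjusted p = 0.0102). Solyc02g082260 fell by 0.70 (SE 0.167, 95% interval -1.05 to -0.35, edgeR adjusted p = 0.0412). Both were lower in collection 4 in all 3 genotypes, with FPS at 99.6 against 82.6 CPM in af, 169 against 71.1 in CHI4 and 202 against 82.9 in CHI9.

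Each collection holds 1 library per genotype, so both calls rest on 3 libraries against 3. The FPS call was lost without CHI4 replicate 3 (adjusted p = 0.0770), CHI9 replicate 3 (0.0901), CHI4 replicate 4 (0.0998) or CHI9 replicate 4 (0.1004). The call of Solyc02g082260 was lost without any library of either collection, with adjusted p from 0.0677 (without CHI4 replicate 4) to 0.302 (without af replicate 4). In af replicate 4 this locus had 31.4 CPM in lane 1 and 45.8 CPM in lane 2 (unscaled), and with lane 2 alone for that library and CHI4 replicate 4 the difference was -0.59 (adjusted p = 0.0906). The other 4 loci had log2 differences of -0.40 (Solyc02g038740), 0.38 (Solyc03g032010), -0.17 (Solyc03g032020) and -0.12 (SQS) between these collections.

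Solyc02g082260 and FPS were highest in collection 3 in all 3 genotypes, as were 4.51% of all tested genes. So were loci of the lists described below: Solyc11g010850, Solyc03g114340 and Solyc01g102820 (MEP pathway), Solyc01g098840 (other mevalonate steps) and Solyc04g070980 (sterol steps). Solyc02g038740 was highest there in both lines, Solyc03g032020 in af and CHI4, and Solyc03g032010 and SQS in no genotype. The 4 HMGR loci summed to 437 ± 50.2 CPM in collection 3 (SD, n = 3), against 282 ± 17.6, 301 ± 60.5 and 349.6 ± 55.5 CPM in collections 1, 2 and 4. The ratio of SQS to FPS counts within a library, which no scaling affects, was lowest in collection 3 in each genotype. It was 2.97 in af, 1.79 in CHI4 and 1.52 in CHI9 there, and 2.75 to 4.49 in the other collections. By genotype the ratio was 3.73 ± 0.794 in af, 3.15 ± 0.956 in CHI4 and 2.76 ± 0.941 in CHI9 (SD, n = 4), with overlapping ranges.

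Collections 3 and 4 were also set against collections 1 and 2, and 0 of 6 loci were called (0.971% of all genes). An unadjusted p under 0.05 was reached by 4 of the 6 loci and by 2579 of all 18326 tested genes. The log2 difference was 0.61 for Solyc03g032020 (SE 0.160, edgeR adjusted p = 0.0900) and 0.49 for FPS (SE 0.127, edgeR adjusted p = 0.0649). DESeq2 and limma-voom called both, but they called 656 and 573 genes in this contrast, against 178 in edgeR. Leaving out CHI4 replicate 1 also made both calls (adjusted p = 0.000684 and 0.0194), and leaving out af replicate 3 made a call of FPS (adjusted p = 0.0282). The other 4 loci stood between 0.05 (SQS) and 0.33 (Solyc02g082260).

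Between collections 2 and 1, 0 of 6 were called (0.0873% of all genes), with log2 differences from -0.40 to 0.43. None of the 6 reached an unadjusted p under 0.05, where 1414 of 18326 genes did. DESeq2 and limma-voom called 0 of 6 here too. Whether the difference between af and the lines itself changed from the first pair of collections to the second was tested as an interaction. No locus and no gene was called (0 of 18326, or 0%), with 505 genes and 0 of the 6 loci at an unadjusted p under 0.05. DESeq2 called 1 gene and 0 of the 6. The interaction estimates ran from -0.58 to 0.32.

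Other steps of the same and linked pathways were taken from lists of locus numbers, which the files do not pair with names. The lists were compared in the fit with genotype alone, which called 13.6% of all tested genes lower in af. Of 9 loci listed for the other mevalonate steps, before and after HMGR, 7 fell in af against the lines. Their log2 differences were -1.43 to -0.49, and 0 of the 9 rose. The lowest was Solyc08g080170 (log2 difference -1.43, SE 0.153, edgeR adjusted p = 1.30e-06). The remaining 2, Solyc08g007790 (0.18) and Solyc12g056450 (0.67), averaged 0.735 and 1.94 CPM over all libraries. The median of the 9 was -0.99, against 0.03 for the 6 loci of HMGR, FPS and SQS and 0.07 for all tested genes. The median of the 6 covers differences in both directions, from -0.47 to 0.57. With the collection as a block, 3 of the 6 were called.

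Beyond squalene, 2 of 5 loci listed for sterol steps fell, with a median of 0.12 over the 5. These were Solyc02g069490 (log2 difference -1.90, SE 0.327, edgeR adjusted p = 0.000751) and Solyc04g070980 (-1.03, SE 0.181, edgeR adjusted p = 0.000257). At the other branch from farnesyl diphosphate, 3 of 3 loci listed as sesquiterpene synthases fell, with a median of -3.71. Of 4 loci listed as prenyl diphosphate synthases or isopentenyl diphosphate isomerase 4 fell (median -1.65), and of 8 for the MEP pathway 7 fell (median -1.29). Over all tested genes, 13.6% were called lower in af. Type VI gland, acylsugar and green leaf markers were also lower in af, in 3 of 4, 2 of 2 and 1 of 2 loci, and their part in these counts was not tested. A locus of the sesquiterpene list and one of the prenyl list are themselves among the gland markers.

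**Figure D4:**
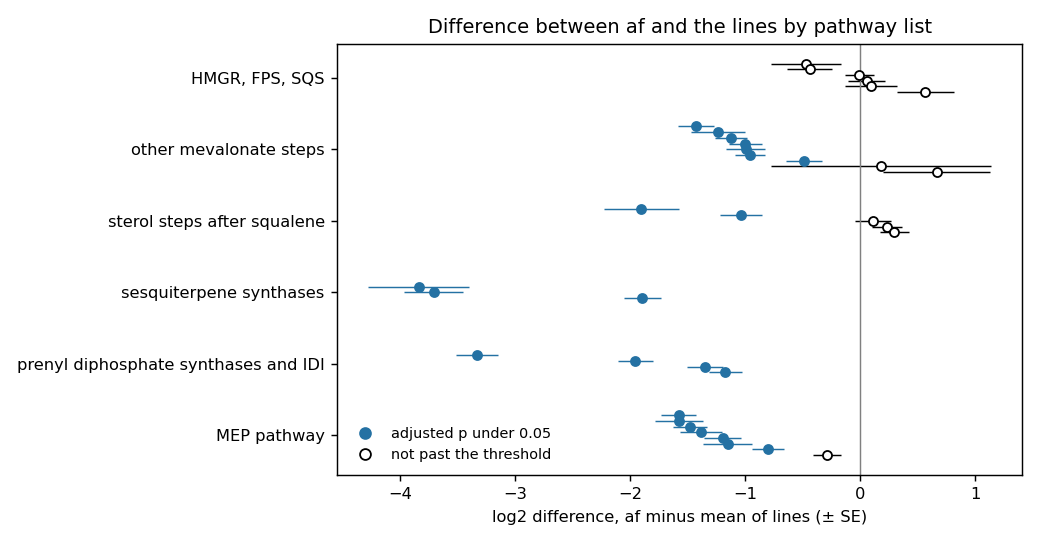
Log2 difference of af from the mean of the lines (x axis, points with ± SE) in the fit with genotype alone. All 35 loci of the 6 and of the pathway lists are shown, a row per list, filled where the adjusted p was under 0.05. The marker lists have no row. The 6 HMGR, FPS and SQS points are open and lie between -0.47 and 0.57, while 7 of 9 points of the other mevalonate steps are filled and lie between -1.43 and -0.49.

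From collection 3 to collection 4, where FPS and Solyc02g082260 fell, 0 loci of these other lists were called. At an unadjusted p under 0.05 stood 4 of the 9 other mevalonate loci and 3 of the 5 sterol loci, in both directions, with log2 differences of -0.88 to 0.47 and -0.85 to 0.40 over the lists. Solyc04g070980 of the sterol list, at -0.55 (edgeR adjusted p = 0.117), was among them. Over all tested genes, 2036 of 18326 reached that unadjusted p. For collections 3 and 4 against 1 and 2, 1 of 8 MEP loci was called, higher, beside 0.971% of all genes.

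Patterns over the 12 libraries were compared by Pearson's r of log2 CPM, as a description, over 11783 genes that averaged 5 CPM or more. For FPS the nearest gene was Solyc12g098710 (r = 0.91, Spearman's rho 0.73, and 0.91 within genotypes). The nearest of the other 40 listed loci, markers included, was Solyc04g070980 of the sterol list (r = 0.76, rho 0.76, and 0.94 within genotypes). For Solyc03g032020 the nearest gene was Solyc06g050220 (r = 0.94, rho 0.83) and the nearest listed locus Solyc04g077440 of the sterol list (r = 0.56, rho 0.59). For SQS they were Solyc01g009380 (r = 0.94, rho 0.90) and the HMGR locus Solyc02g038740 (r = 0.54, rho 0.50). The points share libraries, collections and scaling, and the nearest of many genes is high by selection.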

How the data were processed

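Per the labels' protocols, total RNA was purified by RNeasy columns and TruSeq RNA kits gave the libraries. Per the submitters' processing notes, Trimmomatic, TopHat2, SAMtools and HTSeq were used, and neither genome build nor annotation, versions or strand setting is given in the sources used here. The authors deposited raw counts per gene model, 1 table per lane (24 tables). The 5 summary entries that name no gene were left out (reads in no gene 8.49% to 12.2%, ambiguous 3.67% to 6.68%, several alignments 4.68% to 7.56%, each against all entries). Whether a count is a read or a pair is not recorded, and 61.4% to 71.8% of counts from 1 to 10 in a lane were even, so halved counts were an alternative.

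The 2 lanes of each library were summed as repeat runs. A chi-square over genes per degree of freedom between lanes came to 8.15 for af replicate 4, 5.69 for CHI4 replicate 4 and 1.87 to 2.21 for the other 10 libraries. Depth limits precision: a count of 0, at 3 counts, allows 0.0423 CPM in the deepest and 0.334 CPM in the shallowest library, for counting error only.

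Counts were tested in R 4.3.3 with edgeR 4.0.16 (filterByExpr, TMM, robust quasi-likelihood test, Benjamini-Hochberg over 18326 genes, threshold 0.05), on all 12 libraries. Genotype contrasts used genotype alone, and collection contrasts genotype plus collection. The genotype contrasts were refitted with the collection as a block, since the genotypes share labelled sampling times. This refit was made in edgeR on the summed counts only, with all libraries and with each library left out. Deviations from genotype means correlated at -0.05 to 0.17 within collections (median 0.10, 6 of 12 pairs over 0.1, 11 of 12 libraries nearest their own collection), against a median of -0.03 in 36 other pairs. Alternatives were DESeq2 1.42.0, limma-voom 3.58.1, DESeq2 size factors, no filter, single lanes, halved counts, and each library left out.

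The loci, lists and tests were chosen with earlier results of these data known. The loci named were the 6, listed loci set beside them, and for FPS, SQS and the HMGR locus with the highest mean the gene and listed locus of highest r. None of 41476 RefSeq genes matched by locus number (0 matches). Enzyme names were therefore not checked against an annotation: those of the other lists rest on general knowledge or the earlier results, and those of the 6 loci on the locus numbers given for them.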

Additional observations from a re-analysis of the deposited data

Results flagged for a closer look

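In 3 of the 18 groups of 4 libraries (6 loci in 3 genotypes), 1 library lay far from the others by Dixon's criterion. Chance alone gives about 1 in 20 such groups for independent, normally spread values. These groups share libraries and collections and hold CPM without logs, so an excess over chance cannot be read from them. All 3 values came from libraries of collection 3. Solyc02g082260 stood at 80.4 CPM in CHI9 replicate 3, with the other CHI9 libraries at 38.3 to 44.6 CPM. FPS stood at 202 CPM in the same library, with the others at 82.9 to 95.6 CPM. Solyc03g032020 stood at 129.6 CPM in CHI4 replicate 3, in a group whose other libraries lay between 115 and 117 CPM.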

How the results depend on the processing

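With the collection as a block (pairing by sampling time), af against the lines gave 3 called loci of the 6, af against CHI4 2 and af against CHI9 1, where genotype alone gave 0 each, and CHI9 against CHI4 gave 36 called genes instead of 17. The block changed no other call of the 6 loci. With single libraries left out, the blocked fits gave 0 to 3, 0 to 2 and 0 to 2 called loci, and those without the block 0 to 1, 0 to 1 and 0.

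Counts of called genes depended on the tool, and the cause was not tested. DESeq2, limma-voom and no low-count filter gave 656, 573 and 759 genes for collections 3 and 4 against 1 and 2 (main 178), each with 2 called loci where edgeR gave 0, and 517, 483 and 640 for collection 4 against 3 (main 222). For collection 2 against 1 they gave 82, 53 and 199 genes (main 16). DESeq2 gave 92 and limma-voom 10 genes for CHI9 against CHI4. For the interaction DESeq2 gave 1 and no filter 17 genes. Lane 1 alone called 1 locus, FPS, for collections 3 and 4 against 1 and 2. For collection 4 against 3, lane 2 alone, lane 2 alone for the 2 libraries with unequal lanes, and library totals alone each left 1 called locus, FPS.

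Library totals alone, with no scaling, gave 7702 of 18326 genes for af against the lines (42%, with 36.1% higher in af). They gave 6566 genes for af against CHI4 (5704 higher in af) and 284 for collections 3 and 4 against 1 and 2. Called loci were then 3, 3 and 2 for af against the lines, CHI4 and CHI9, all higher in af. In that setting SQS stood at 0.42 for af against the lines and -0.049 for collections 3 and 4 against 1 and 2, and Solyc02g082260 at 0.0032 and FPS at 0.11 against CHI4.

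SQS also changed sign, near 0, with lane 1 alone (0.017 for af against the lines, -0.0084 for the later collections) and with lane 2 alone for the 2 libraries (0.0056). Leaving out libraries moved SQS between -0.077 and 0.035 for af against the lines (blocked -0.083 to 0.035, above 0 also at 0.0013, 0.012, 0.025 and 0.032) and between -0.029 and 0.10 for the later against the earlier collections. Solyc02g038740 ran from -0.0056 to 0.18 (blocked -0.024 to 0.23) and Solyc03g032010 from -0.039 to 0.22 (blocked -0.23 to 0.32) for af against the lines, and Solyc03g032010 from -0.0095 to 0.40 for the later collections. For af against the lines Solyc02g082260 ran from -0.60 to -0.29 (blocked -0.50 to -0.34), Solyc03g032020 from 0.29 to 0.79 (blocked 0.33 to 0.67) and FPS from -0.61 to -0.27 (blocked -0.55 to -0.22). Against CHI9, Solyc02g082260 ran from -0.58 to -0.12, Solyc03g032020 from 0.17 to 0.67 and FPS from -0.72 to -0.19. Solyc03g032020 ran from -0.44 to 0.065 for collection 4 against 3, and FPS from -0.53 to 0.016 against CHI4 (blocked -0.44 to -0.11).

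With libraries left out, called genes ran from 3593 to 5361 for af against the lines (blocked 4260 to 6114), from 2724 to 4200 against CHI4 (blocked 3413 to 5108) and from 2733 to 3918 against CHI9 (blocked 3531 to 4843). They ran from 9 to 16 for CHI9 against CHI4, from 26 to 736 for collections 3 and 4 against 1 and 2, from 6 to 31 for collection 2 against 1 and from 78 to 340 for collection 4 against 3. The last contrast had 0 to 2 called loci, and collections 3 and 4 against 1 and 2 had 0 to 2. Of the other mevalonate loci 6 to 7 were lower in af. A collection holds 3 libraries, which limits every contrast between collections.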
